A study of Mus musculus with 8 samples.

Results

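The genes described here are 41 genes that carry a cell from late G2 phase through mitosis: the cyclins and kinases of mitotic entry, the chromosomal passengers, the spindle checkpoint, the machinery that triggers anaphase, the kinetochore, mitotic kinesins, condensin and cytokinesis. They were chosen by function as a list, and each was followed through the probe sets whose only gene symbol, in the platform's table, was that gene. Of the 41 genes, 39 were measured, each by 1 probe set, among 21515 genes in all. Ccnb1 was not analysed here, and Ncapg shares its probe set with Lcorl and was left out. Expression was measured on 8 Affymetrix whole-transcript arrays of mouse spleen B cells in 4 groups of 2 arrays. LMP1 cells came from female (C57BL6XBALBc) F1 mice of genotype LMP1flSTOP/YFPflSTOP, in which a stop cassette keeps the LMP1 transgene (a constitutively signalling membrane protein of Epstein-Barr virus) and a YFP reporter silent. YFP control cells came from female F1 mice of genotype YFPflSTOP/+. Both kinds were treated in culture with TAT-Cre, a recombinase that enters cells and removes the cassette, and YFP+ cells were sorted after 2 days. Naive control cells came from male C57BL6 mice of strain B6/J and went into RNA extraction without culture, and CD40-activated cells of the same kind were held for 2 days with an antibody to CD40. All cells were taken by depleting cells with CD43, and the ages of the mice and any pooling of animals are not given in the sources used here.

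Entry into mitosis is driven by cyclin A and cyclin B bound to the kinase CDK1, whose brake is lifted by phosphatases of the CDC25 family. The kinetochore, a protein plate built on the centromere, then holds each chromosome to spindle microtubules, and the spindle checkpoint blocks the anaphase-promoting complex until every kinetochore is attached. Most resting spleen B cells are quiescent, and signals through CD40 are a textbook way to bring B cells into the cycle. Genes of this group are transcribed late in the cycle, and in quiescent cells the DREAM complex holds many of them down through a promoter element called the CHR (cell cycle genes homology region), often beside boxes bound by the factor NF-Y.

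Values are log2 levels as the authors deposited them after RMA, which background-corrects, normalizes and summarises the probes. A gene passed when its adjusted p (limma, Benjamini-Hochberg over all 21515 genes) was under 0.05, and the error beside a log2 change is its standard error in that fit. The replicates are labelled biological, and with 2 arrays a group the precision of each value is limited by their number. LMP1 and YFP control arrays were re-analysed from an earlier series, so in any comparison across the 2 sets of arrays the set cannot be told apart from strain, sex, TAT-Cre and sort. In bulk RNA of this kind, more dividing cells and more RNA per dividing cell cannot be told apart. B cell markers were high in all groups, with summed linear signals of 5 genes between 11261.5 and 23430.1, lowest on the LMP1 arrays. Naive controls also carried T cell signal (a sum of 2099.6 to 2550.7 over 5 genes, against 198.0 to 315.1 on the other 6 arrays) and erythroid signal, which is described beside the replicates.

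Promoters of the group are shown because most of the measured genes moved together and the CHR is a known element of many late cell cycle promoters. RefSeq windows of 300 bases on GRCm38.p6, from 250 before to 50 after the transcript start, matched 33 of the 41 genes. Among these are Ccnb1 and Ncapg, whose expression was not compared here. The CHR was searched as TTTGAA or TTCGAA and the NF-Y box as CCAAT, both on either strand; overlapping matches were each counted. A CHR lay in the windows of 26 of 33 genes (78.8%), against 21.7% of 27025 genes with such a window. An NF-Y box lay in 25 of 33 (75.8%, against 41.1%), and both motifs in 23 of 33 (69.7%, against 8.61%). In 24 of 33 genes a CHR began within the last 100 bases of the window, near the start site, as it did in 6.12% of all genes; that boundary was set after the positions were seen. The members were picked by function, and the list was not independent of earlier results, so these shares are descriptions.

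The windows of Ccnb2 (chr9:70421505-70421804, minus strand), Cdk1 (chr10:69352863-69353162, minus strand) and Plk1 (chr7:122159185-122159484, plus strand) show the common layout, with NF-Y boxes ahead of a CHR near the start. Those of Ncaph (chr2:127133905-127134204, minus strand) and Pttg1 (chr11:43425932-43426231, minus strand) hold neither motif. Sequences run 5′ to 3′ on the gene's strand, with CHR elements (TTTGAA or TTCAAA, its reverse) and NF-Y boxes (CCAAT or ATTGG) in capitals.
Ccnb2: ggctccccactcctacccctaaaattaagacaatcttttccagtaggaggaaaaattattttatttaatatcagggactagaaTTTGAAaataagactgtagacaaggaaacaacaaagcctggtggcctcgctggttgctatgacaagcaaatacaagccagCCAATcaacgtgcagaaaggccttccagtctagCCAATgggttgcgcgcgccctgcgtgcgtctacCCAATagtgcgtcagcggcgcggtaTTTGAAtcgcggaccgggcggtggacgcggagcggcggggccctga
Cdk1: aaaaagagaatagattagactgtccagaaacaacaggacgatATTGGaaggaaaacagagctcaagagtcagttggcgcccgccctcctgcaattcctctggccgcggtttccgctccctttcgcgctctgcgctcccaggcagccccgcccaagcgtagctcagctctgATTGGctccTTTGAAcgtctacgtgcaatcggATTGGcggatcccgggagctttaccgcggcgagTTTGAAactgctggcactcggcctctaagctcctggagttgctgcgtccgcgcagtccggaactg
Plk1: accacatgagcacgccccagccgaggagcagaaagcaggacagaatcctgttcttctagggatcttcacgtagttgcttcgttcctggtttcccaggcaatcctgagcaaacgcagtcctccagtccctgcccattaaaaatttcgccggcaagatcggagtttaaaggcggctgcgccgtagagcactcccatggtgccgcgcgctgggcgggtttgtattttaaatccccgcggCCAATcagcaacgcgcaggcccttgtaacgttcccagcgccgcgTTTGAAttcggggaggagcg
Ncaph: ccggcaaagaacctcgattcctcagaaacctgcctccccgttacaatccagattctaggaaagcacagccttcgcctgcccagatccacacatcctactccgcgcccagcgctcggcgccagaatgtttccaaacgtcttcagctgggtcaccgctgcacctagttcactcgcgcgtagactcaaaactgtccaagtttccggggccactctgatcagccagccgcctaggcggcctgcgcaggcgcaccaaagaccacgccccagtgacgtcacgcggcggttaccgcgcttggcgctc
Pttg1: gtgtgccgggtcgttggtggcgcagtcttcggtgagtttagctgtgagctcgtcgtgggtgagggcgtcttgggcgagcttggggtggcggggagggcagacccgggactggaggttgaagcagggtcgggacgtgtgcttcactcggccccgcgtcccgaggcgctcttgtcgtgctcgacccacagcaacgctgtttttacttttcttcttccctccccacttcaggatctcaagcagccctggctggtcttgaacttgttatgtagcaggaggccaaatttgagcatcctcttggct

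Besides Ncaph and Pttg1, the windows of Mad2l1, Nuf2 and Nusap1 held neither motif. Of these 5 genes, 4 rose in both activated groups and Pttg1 rose in neither, as described below. Over all genes 14.9% rose with LMP1 and 11.0% with CD40. Ube2c, whose window held 1 CHR and 6 NF-Y boxes, passed in neither comparison. Anln and Cenpa, each with a CHR, did not pass with CD40. A link between the motifs and the changes was not tested.

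**Figure D1:**
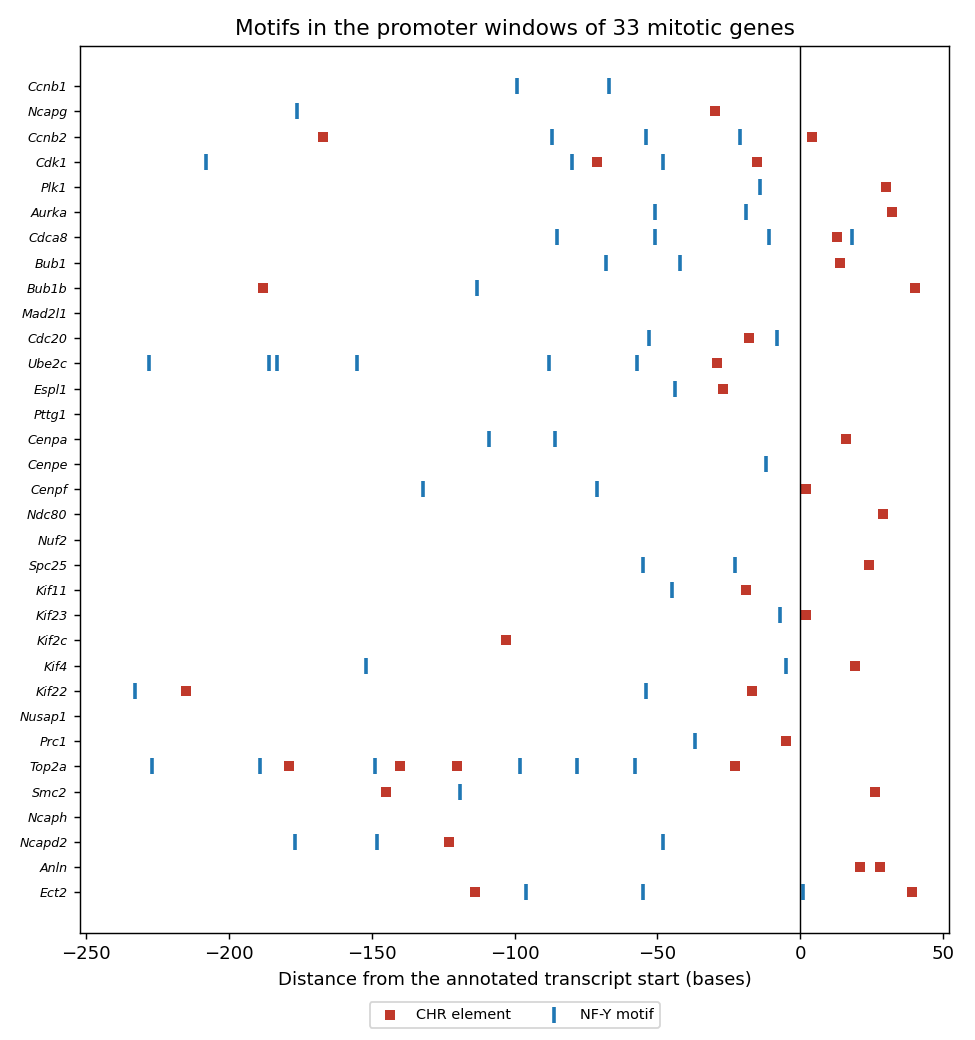
Positions of CHR elements (red squares) and NF-Y motifs (blue bars) in the promoter windows of 33 mitotic genes, by distance from the annotated transcript start in bases (1 window a gene). CHR elements lie near the start in 24 genes, and 5 genes have neither motif.

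The groups fell into a common order. All 39 genes had their highest mean level in LMP1 cells, and 32 had their lowest in naive control cells. For 28 genes the order of group means was naive control, YFP control, CD40-activated, LMP1. Shares of all genes with this order, or with these highest and lowest groups, were not computed. In 6 genes the YFP control was below the naive control, and in 4 it was above the CD40-activated cells; in Pttg1 the CD40-activated cells were lowest. The median level over the 39 genes was 6.55 to 7.20 on the naive arrays, 7.44 to 7.68 on the YFP controls, 8.37 to 8.61 on the CD40-activated arrays and 9.36 to 9.41 on the LMP1 arrays. Groups did not overlap in that median.

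**Figure D2:**
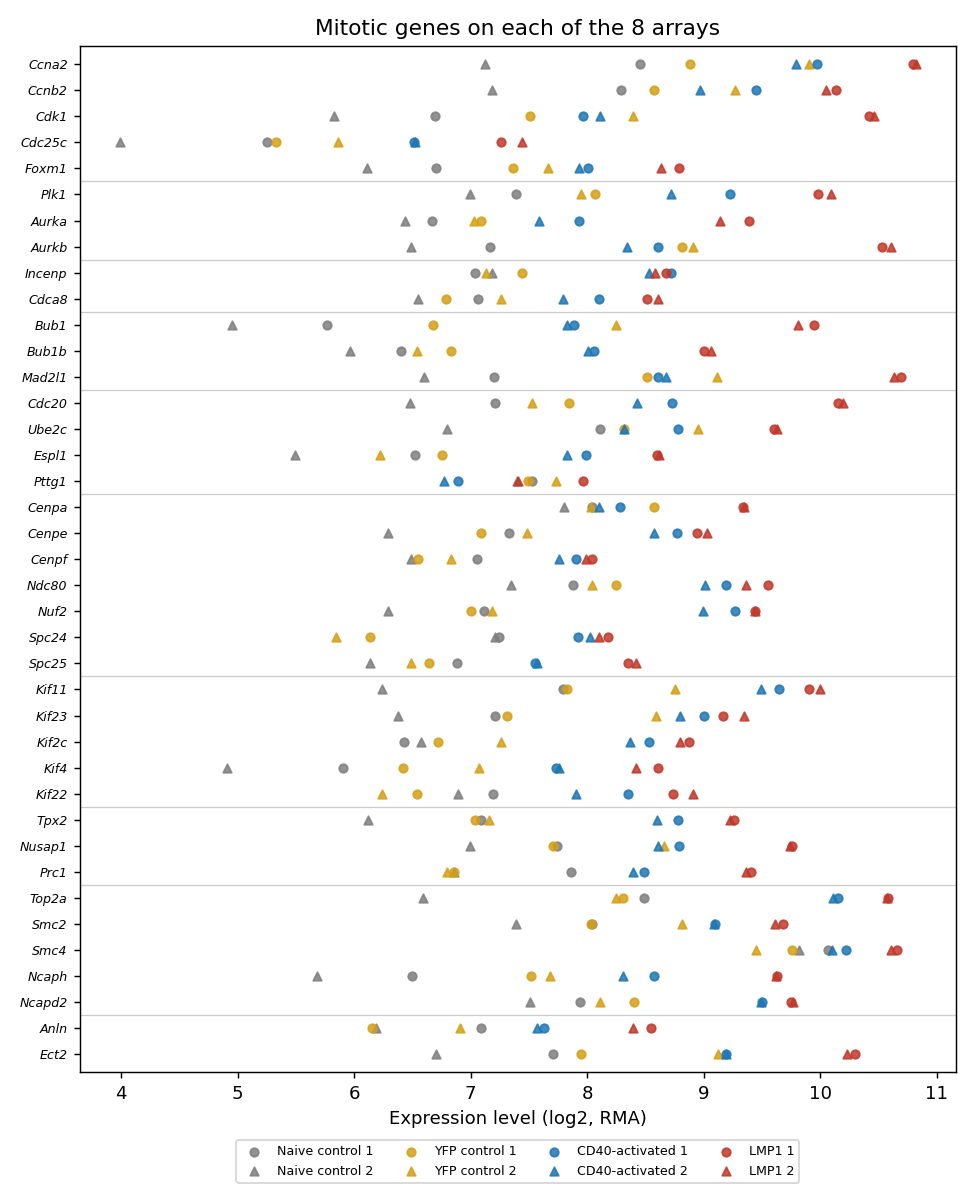
Level (log2, RMA) of 39 mitotic genes on each of 8 arrays, with circles for replicate 1 and triangles for replicate 2 and genes grouped by role between grey lines. The LMP1 arrays (red) are rightmost for nearly every gene and the naive arrays (grey) spread most, with replicate 1 mostly above replicate 2.

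The effect of LMP1 was read against YFP control cells, which share strain, sex, treatment and sort with the LMP1 cells. Of 39 genes 37 rose and 0 fell, where 14.9% of all genes rose and 8.31% fell. The median change was 1.76 log2, against -0.08 over all genes, and every one of the 37 rose by at least 1 log2. Both LMP1 arrays lay above both YFP arrays for 38 of 39 genes, as for 27.5% of all genes. The largest rises were those of Prc1 (2.56), which bundles the microtubules of the central spindle, Cdk1 and Cdc20 (both 2.49), and Kif22 (2.44). Ube2c (0.98) and Pttg1 (0.08) did not pass. Under quantile normalization within each set of arrays 33 genes rose, and the share of upward calls over all genes was 53.4% in place of 64.2%. Ccna2, Ccnb2, Kif11 and Kif23 were not called in that fit, nor when YFP control 1 was left out.

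The effect of CD40 was read against naive control cells, which were not cultured, so antibody and culture cannot be told apart. Here 34 of 39 genes rose and 0 fell, where 11.0% of all genes rose and 6.65% fell. The median change was 1.74 log2, against -0.05 over all genes. Both CD40-activated arrays lay above both naive arrays for 38 genes, as for 28.4% of all genes, and below them for Pttg1, as for 31.2%. Top2a (2.59), Kif11 (2.56), Bub1 (2.50) and Nuf2 (2.43) led. Ube2c (1.10), Anln (0.96), Cenpa (0.27), Smc4 (0.22) and Pttg1 (-0.64) did not pass. The count was 36 without naive control 1 and 27 without naive control 2, with medians of 1.98 and 1.34, and 22 without CD40-activated array 1, when Ccna2, Ccnb2, Spc25 and 9 others were lost. With array medians subtracted the share of upward calls over all genes was 73.3% in place of 62.4%, and 35 members rose. Under quantile normalization within each set of arrays that share was 52.9%, and 30 members rose and 1 fell. Ccnb2, Nusap1, Prc1 and Spc24 were not called in that fit.

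**Figure D3:**
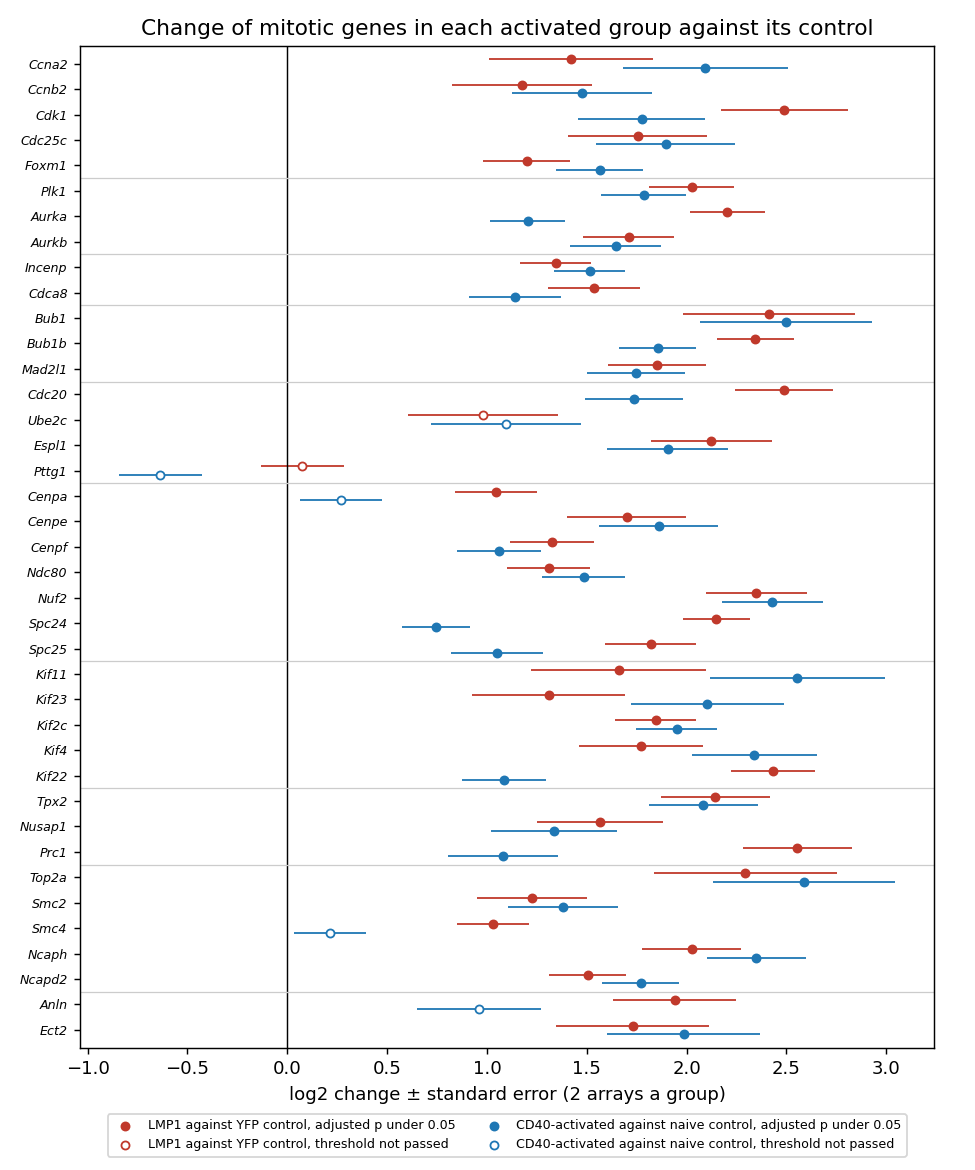
Change in log2 with its standard error for 39 mitotic genes, LMP1 against YFP control in red and CD40-activated against naive control in blue; filled points passed an adjusted p of 0.05. Nearly all points lie right of 0, and the open points include both for Ube2c and Pttg1.

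Mitotic entry. Cdk1, the kinase at the centre of the switch, stood at 6.69 and 5.83 on naive control 1 and 2, 7.51 and 8.39 on the YFP controls, 7.96 and 8.11 on the CD40-activated arrays and 10.42 and 10.46 on the LMP1 arrays. The LMP1 arrays were more than 2 log2 above every other array. The change was 2.49 ± 0.32 (adjusted p = 0.000414) with LMP1 and 1.78 ± 0.32 (adjusted p = 0.00427) with CD40. Ccna2, cyclin A2, was at 8.45 and 7.12 on naive control 1 and 2, 8.88 and 9.90 on the YFP controls, 9.97 and 9.79 on the CD40-activated arrays and 10.80 and 10.82 on the LMP1 arrays. YFP control 2 reached the CD40-activated level and YFP control 1 did not, and the groups naive and LMP1 were far apart. Ccna2 rose by 1.42 ± 0.41 (adjusted p = 0.0314) with LMP1 and 2.10 ± 0.41 (adjusted p = 0.00666) with CD40. Ccnb2, cyclin B2, had levels of 8.29 and 7.18 on naive control 1 and 2, 8.57 and 9.27 on the YFP controls, 9.45 and 8.97 on the CD40-activated arrays and 10.14 and 10.05 on the LMP1 arrays, and it rose by 1.18 and 1.48 in the same comparisons. Foxm1, a transcription factor that drives late cell cycle genes, read 6.70 and 6.11 on naive control 1 and 2, 7.36 and 7.66 on the YFP controls, 8.01 and 7.93 on the CD40-activated arrays and 8.79 and 8.63 on the LMP1 arrays. Its 4 groups did not overlap, with changes of 1.20 ± 0.22 (adjusted p = 0.00291) and 1.56 ± 0.22 (adjusted p = 0.00107). Cdc25c, a phosphatase that activates CDK1, rose by 1.76 and 1.90, from levels of 5.25 and 3.99 on the naive arrays.

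Mitotic kinases and chromosomal passengers. Plk1, polo-like kinase 1, which matures centrosomes and prepares chromosome separation, was at 7.39 and 6.99 on naive control 1 and 2, 8.07 and 7.95 on the YFP controls, 9.23 and 8.72 on the CD40-activated arrays and 9.98 and 10.09 on the LMP1 arrays. The groups did not overlap, and Plk1 rose by 2.02 ± 0.21 (adjusted p = 0.000144) with LMP1 and 1.78 ± 0.21 (adjusted p = 0.000511) with CD40. Aurka, the Aurora kinase of spindle poles, read 6.67 and 6.44 on naive control 1 and 2, 7.09 and 7.03 on the YFP controls, 7.93 and 7.59 on the CD40-activated arrays and 9.39 and 9.14 on the LMP1 arrays. It rose by 2.20 ± 0.19 (adjusted p = 4.40e-05) with LMP1 and by 1.20 ± 0.19 (adjusted p = 0.00199) with CD40. Aurkb, the kinase of the chromosomal passenger complex, had 7.17 and 6.49 on naive control 1 and 2, 8.81 and 8.91 on the YFP controls, 8.61 and 8.34 on the CD40-activated arrays and 10.53 and 10.61 on the LMP1 arrays. Here the YFP controls lay above the CD40-activated arrays, and the changes were 1.71 and 1.64. The partners that place Aurora B on chromosomes also rose: Incenp by 1.34 and 1.52, and Cdca8 (borealin) by 1.54 and 1.14.

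Spindle checkpoint and anaphase. All 3 checkpoint genes rose in both comparisons, where 14.9% of all genes rose with LMP1 and 11.0% with CD40. Bub1, a checkpoint kinase, was at 5.77 and 4.95 on naive control 1 and 2, 6.68 and 8.25 on the YFP controls, 7.89 and 7.83 on the CD40-activated arrays and 9.95 and 9.81 on the LMP1 arrays. The YFP controls were 1.57 log2 apart, and the LMP1 arrays still lay above both, with a change of 2.42 ± 0.43 (adjusted p = 0.00265) with LMP1 and 2.50 ± 0.43 (adjusted p = 0.00336) with CD40. Mad2l1, which encodes the checkpoint protein MAD2, read 7.20 and 6.60 on naive control 1 and 2, 8.51 and 9.11 on the YFP controls, 8.61 and 8.68 on the CD40-activated arrays and 10.69 and 10.63 on the LMP1 arrays, and rose by 1.85 and 1.74. Bub1b, encoding BUBR1, rose by 2.35 and 1.86, with YFP controls at 6.83 and 6.54 and LMP1 arrays at 9.0 and 9.06.

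Cdc20, the activator through which the checkpoint restrains the anaphase-promoting complex, was at 7.21 and 6.48 on naive control 1 and 2, 7.84 and 7.53 on the YFP controls, 8.73 and 8.43 on the CD40-activated arrays and 10.15 and 10.20 on the LMP1 arrays. No groups overlapped, and Cdc20 rose by 2.49 ± 0.24 (adjusted p = 9.67e-05) and 1.74 ± 0.24 (adjusted p = 0.00119). Espl1, separase, the protease that cuts cohesin, rose by 2.12 and 1.90. Its inhibitor securin, encoded by Pttg1, behaved apart, at 7.53 and 7.40 on naive control 1 and 2, 7.49 and 7.73 on the YFP controls, 6.89 and 6.77 on the CD40-activated arrays and 7.96 and 7.41 on the LMP1 arrays. LMP1, YFP and naive arrays overlapped and the CD40-activated arrays were the lowest of all 8. Pttg1 had a change of 0.08 ± 0.21 (adjusted p = 0.841) with LMP1 and -0.64 ± 0.21 (adjusted p = 0.063) with CD40. Against the naive controls the difference passed as a drop when only those 2 groups were fitted, when each set was quantile-normalized alone, and without either YFP control array. Ube2c, the ubiquitin-conjugating enzyme of the anaphase-promoting complex, read 8.11 and 6.80 on naive control 1 and 2, 8.32 and 8.95 on the YFP controls, 8.78 and 8.32 on the CD40-activated arrays and 9.60 and 9.63 on the LMP1 arrays. Its LMP1 arrays were highest, and its controls were spread; the changes of 0.98 ± 0.38 (adjusted p = 0.0938) and 1.10 ± 0.38 (adjusted p = 0.0753) did not pass.

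Centromere and kinetochore. All 7 genes rose with LMP1 and 6 with CD40, against 14.9% and 11.0% of all genes. Nuf2, a subunit of the NDC80 complex that grips microtubules, was at 7.11 and 6.29 on naive control 1 and 2, 7.0 and 7.18 on the YFP controls, 9.27 and 8.99 on the CD40-activated arrays and 9.44 and 9.44 on the LMP1 arrays. YFP and naive arrays overlapped, and both activated groups lay well above them, by 2.35 ± 0.25 (adjusted p = 0.000153) and 2.43 ± 0.25 (adjusted p = 0.000224). Spc24, another subunit of that complex, had 7.24 and 7.21 on naive control 1 and 2, 6.14 and 5.84 on the YFP controls, 7.92 and 8.02 on the CD40-activated arrays and 8.18 and 8.10 on the LMP1 arrays. The YFP controls were lower than the naive controls, and the activated groups lay close to each other. Spc24 rose by 2.15 ± 0.17 (adjusted p = 3.05e-05) with LMP1 and by 0.74 ± 0.17 (adjusted p = 0.0138) with CD40. The remaining subunits Ndc80 (1.31 and 1.48) and Spc25 (1.82 and 1.05) rose in both. Cenpa, the histone variant that marks centromeres, read 8.04 and 7.80 on naive control 1 and 2, 8.57 and 8.03 on the YFP controls, 8.28 and 8.10 on the CD40-activated arrays and 9.34 and 9.35 on the LMP1 arrays. The LMP1 arrays lay above every other array. Cenpa rose by 1.04 ± 0.21 (adjusted p = 0.00473) with LMP1 and was at 0.27 ± 0.21 (adjusted p = 0.423) with CD40 without passing. Both CD40-activated arrays still lay above both naive arrays, as for 28.4% of all genes. Cenpe, a kinetochore motor, rose by 1.70 and 1.86, and Cenpf, a kinetochore protein made in G2 and mitosis, by 1.32 and 1.06.

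Kinesins and spindle assembly. All 8 genes rose in both comparisons, against 14.9% of all genes with LMP1 and 11.0% with CD40. With each set quantile-normalized alone, Kif11 and Kif23 were not called with LMP1, nor Nusap1 and Prc1 with CD40. Kif11, the motor that pushes spindle poles apart, was at 7.79 and 6.24 on naive control 1 and 2, 7.83 and 8.75 on the YFP controls, 9.65 and 9.49 on the CD40-activated arrays and 9.90 and 10.0 on the LMP1 arrays. Naive control 1 matched YFP control 1, and naive control 2 lay 1.55 below it. Kif11 rose by 1.66 ± 0.44 (adjusted p = 0.0206) with LMP1 and 2.56 ± 0.44 (adjusted p = 0.00328) with CD40. Kif22, a motor that binds chromosome arms, read 7.19 and 6.89 on naive control 1 and 2, 6.54 and 6.24 on the YFP controls, 8.35 and 7.90 on the CD40-activated arrays and 8.74 and 8.91 on the LMP1 arrays, so that the YFP controls were the lowest arrays. It rose by 2.44 ± 0.21 (adjusted p = 4.74e-05) and 1.08 ± 0.21 (adjusted p = 0.00622). Prc1 had 7.86 and 6.86 on naive control 1 and 2, 6.86 and 6.80 on the YFP controls, 8.49 and 8.39 on the CD40-activated arrays and 9.41 and 9.36 on the LMP1 arrays, where YFP control and naive control 2 were level and naive control 1 stood about 1 log2 above them. Prc1 rose by 2.56 ± 0.27 (adjusted p = 0.000154) and 1.08 ± 0.27 (adjusted p = 0.0231). The others were Kif2c, which takes microtubule ends apart (1.84 and 1.95), the chromosome-bound motor Kif4 (1.77 and 2.34), the central spindle motor Kif23 (1.31 and 2.10), the Aurora A activator Tpx2 (2.14 and 2.08) and the microtubule bundler Nusap1 (1.56 and 1.34).

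Chromosome compaction and cytokinesis. Top2a, topoisomerase II alpha, which untangles sister chromatids, was at 8.49 and 6.59 on naive control 1 and 2, 8.31 and 8.25 on the YFP controls, 10.15 and 10.11 on the CD40-activated arrays and 10.58 and 10.57 on the LMP1 arrays. The naive controls were 1.90 log2 apart, the widest gap between naive arrays among these genes. Top2a rose by 2.30 ± 0.46 (adjusted p = 0.0049) with LMP1 and 2.59 ± 0.46 (adjusted p = 0.00382) with CD40. Condensin folds chromosomes around a core of SMC2 and SMC4, and its subunit Ncaph read 6.50 and 5.68 on naive control 1 and 2, 7.52 and 7.68 on the YFP controls, 8.57 and 8.31 on the CD40-activated arrays and 9.63 and 9.62 on the LMP1 arrays. Its groups did not overlap, with changes of 2.02 ± 0.25 (adjusted p = 0.000332) and 2.35 ± 0.25 (adjusted p = 0.000257). Smc4 had 10.07 and 9.82 on naive control 1 and 2, 9.76 and 9.45 on the YFP controls, 10.22 and 10.10 on the CD40-activated arrays and 10.66 and 10.61 on the LMP1 arrays, high in all groups, and it rose with LMP1 (1.03 ± 0.18, adjusted p = 0.00229) but did not pass with CD40 (0.22 ± 0.18, adjusted p = 0.465). The condensin subunit Ncapd2 rose by 1.5 and 1.77 and Smc2 by 1.23 and 1.38. Of the cytokinesis genes, Ect2, which activates RhoA at the cleavage site, rose by 1.73 and 1.98. Anln (anillin), a scaffold of the contractile ring, was at 7.09 and 6.19 on naive control 1 and 2, 6.15 and 6.91 on the YFP controls, 7.63 and 7.57 on the CD40-activated arrays and 8.55 and 8.39 on the LMP1 arrays, and rose by 1.94 ± 0.31 (adjusted p = 0.00142) with LMP1 without passing with CD40 (0.96 ± 0.31, adjusted p = 0.0598).

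The control arrays differed from each other over this group. Naive control 1 was above naive control 2 for 37 of 39 genes, by a median of 0.74 log2, and by more than 1 for 9; over all genes 50.4% were higher on naive control 1. The erythroid genes moved with this difference. Without Tfrc, which other dividing cells use too, the summed linear signal of 7 erythroid genes was 6433.4 on naive control 1 and 2211.5 on naive control 2, against 304.1 to 1298.3 on the other 6 arrays. Slc4a1, the red cell anion exchanger, read 11.15 and 9.39 on naive control 1 and 2, and Klf1, an erythroid transcription factor, 7.38 and 5.87. T cell signal was closer between the naive arrays (2550.7 and 2099.6). NK cell signal was 630.5 on naive control 1 and 382.2 on naive control 2, and monocyte and macrophage signal was 302.7 and 222.3. B cell signal was 15920.3 and 16016.9. All 5 T cell genes and 7 of 8 erythroid genes were lower in CD40-activated and in YFP control cells than in naive controls, and NK cell genes were lower for 2 and 3 of 4. Plasmablast genes were higher for 3 of 4 and monocyte and macrophage genes for 2 of 4 in YFP controls than in naive controls. With CD40, 2 of 4 plasmablast genes were higher and 1 lower, and 1 of 4 monocyte and macrophage genes was higher and 1 lower. Over all genes 11.0% were higher and 6.65% lower with CD40. In YFP controls against naive controls 10.9% were higher and 7.59% lower. The marker lists are short, so a count of 1 says little beside these shares. In LMP1 cells, against YFP controls, 2 of 4 plasmablast genes and 2 of 4 monocyte and macrophage genes were lower. So were 3 of 5 B cell genes and 1 of 5 T cell genes, where 8.31% of all genes were lower with LMP1 and 14.9% higher. Of 8 erythroid genes 2 were higher, Tfrc and Car2, and the other 6 did not pass. Car2 read 8.39 and 7.63 on the YFP controls and 10.1 and 9.72 on the LMP1 arrays. The part of RNA from other cells in the mitotic signal was not tested. YFP control 2 was above YFP control 1 for 24 genes and below it for 15, where 55.1% of all genes were above. It was more than 1 log2 above for Bub1, Kif23, Ect2 and Ccna2. CD40-activated array 1 was above array 2 for 32 of 39 genes, by a median of 0.16, where 48.8% of all genes were. No gene differed by more than 0.55 between the LMP1 arrays or by more than 0.51 between the CD40-activated arrays.

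**Figure D4:**
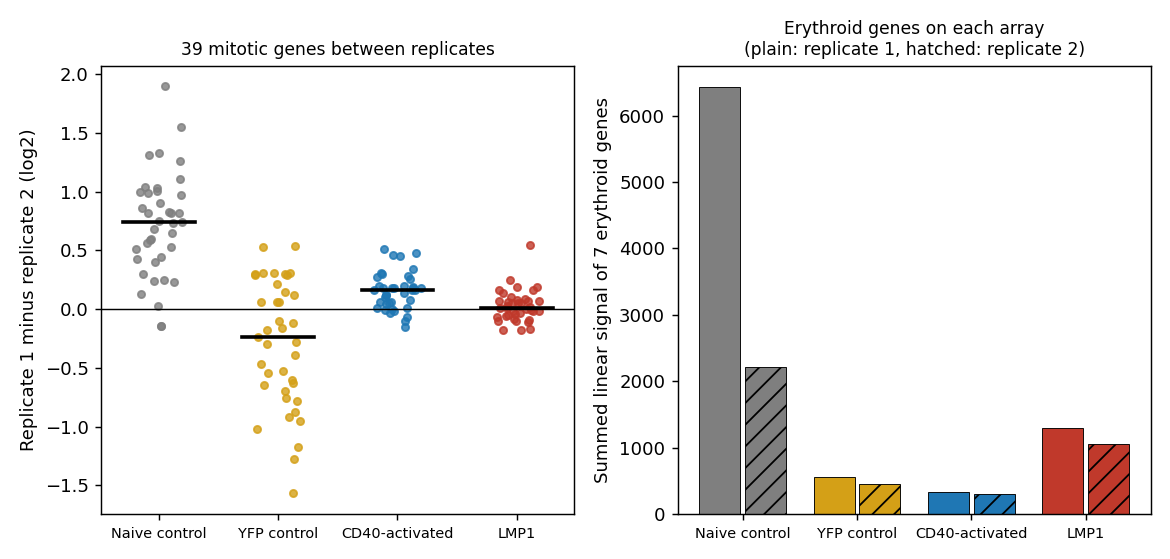
Left, replicate 1 minus replicate 2 (log2) for each of 39 mitotic genes in 4 groups, with bars at the medians; right, summed linear signal of 7 erythroid genes on each array. Naive control 1 is above naive control 2 for 37 genes and has the highest erythroid sum, 6433.4.

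YFP control cells were set against naive control cells to see what separates the controls, namely culture, TAT-Cre, the sort, strain, sex and array set together. Of 39 genes 12 were higher and 1 lower, where 10.9% of all genes were higher and 7.59% lower, and the median difference was 0.53 against 0.00 over all genes. Both YFP arrays lay above both naive arrays for 21 genes (27.5% of all genes) and below them for 3 (25.3%). Highest were Bub1 (2.10 ± 0.43, adjusted p = 0.00869), Aurkb (2.03 ± 0.23, adjusted p = 0.000436), Mad2l1 (1.91) and Cdk1 (1.69). Of the 5 genes of mitotic entry 4 were among the 12, as was 1 of 5 kinesins. Spc24 was lower, at -1.24 ± 0.17 (adjusted p = 0.0012), and Kif22 (-0.65), Prc1 (-0.53), Smc4 (-0.34), Anln (-0.11) and Cenpf (-0.08) had values below 0 without passing. This comparison rested on single control arrays: 23 genes were higher without naive control 1 and 5 without naive control 2, with medians of 1.00 and 0.34, and 7 without YFP control 2. With only these 2 groups in the fit the count was 6.

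CD40-activated cells and YFP control cells were both cultured for 2 days, across array sets. Of 39 genes 20 were higher in CD40-activated cells and 1 lower, where 7.75% of all genes were higher and 6.06% lower, with a median difference of 0.95 against -0.04. Both CD40-activated arrays lay above both YFP arrays for 29 genes (24.2% of all genes) and below them for 2 (29.5%). Nuf2 (2.04 ± 0.25, adjusted p = 0.000872), Spc24 (1.98 ± 0.17, adjusted p = 0.000124), Top2a (1.85) and Kif22 (1.74) were the highest. By role, 6 of 7 centromere and kinetochore genes were higher and 0 of 5 mitotic entry genes, where Cdk1 was at 0.08 ± 0.32 (adjusted p = 0.902) and Ccna2 at 0.49 ± 0.41 (adjusted p = 0.494). Pttg1 was lower, at -0.78 ± 0.21 (adjusted p = 0.0344). When each set was quantile-normalized alone 13 were higher, with a median of 0.66, and upward calls over all genes were 42.2% in place of 56.1%. The count was 7 without CD40-activated array 1 and 10 without array 2.

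LMP1 cells were compared with CD40-activated cells to set the 2 kinds of activation side by side; strain, sex, TAT-Cre, sort and array set differ here as well. LMP1 cells had 14 of 39 genes higher and 0 lower, where 9.66% of all genes were higher and 5.17% lower. The median difference was 0.82 against 0.00 over all genes, and both LMP1 arrays lay above both CD40-activated arrays for 38 of 39 genes, as for 32.6% of all genes, and below them for 0, as for 30.1%. Cdk1 (2.40 ± 0.32, adjusted p = 0.00086), Aurkb (2.10 ± 0.23, adjusted p = 0.000281), Bub1 (2.02 ± 0.43, adjusted p = 0.011) and Mad2l1 (2.02 ± 0.25, adjusted p = 0.000549) stood highest, followed by Cdc20 (1.60), Aurka (1.5), Ncaph (1.18), Cenpa (1.16), Plk1 (1.06) and Bub1b (1.0). Prc1 (0.94), Pttg1 (0.86), Spc25 (0.82) and Foxm1 (0.74) completed the 14. The Foxm1 call was lost with trend and robust eBayes, and the Foxm1 and Spc25 calls with each set quantile-normalized alone. With array medians subtracted the Prc1 call was lost. In this fit all 3 mitotic kinases and all 3 checkpoint genes were among them, and 0 of 5 kinesins, whose differences ran from 0.36 to 0.77. The kinesins Kif11, Kif22, Kif2c and Kif4 passed when only these 2 groups were fitted. With 1 array left out, the difference ran from 1.95 to 2.09 for Bub1, 0.96 to 1.02 for Bub1b and 0.81 to 1.31 for Plk1. The calls of Bub1, Bub1b and Plk1 were not kept in every one of these fits. Incenp was at 0.0 ± 0.18 (adjusted p = 0.992) and Spc24 at 0.17 ± 0.17 (adjusted p = 0.63). With only these 2 groups in the fit, whose replicates lay close together, 31 genes were higher, and the fits without an LMP1 or a CD40-activated array gave 5 to 7.

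**Figure D5:**
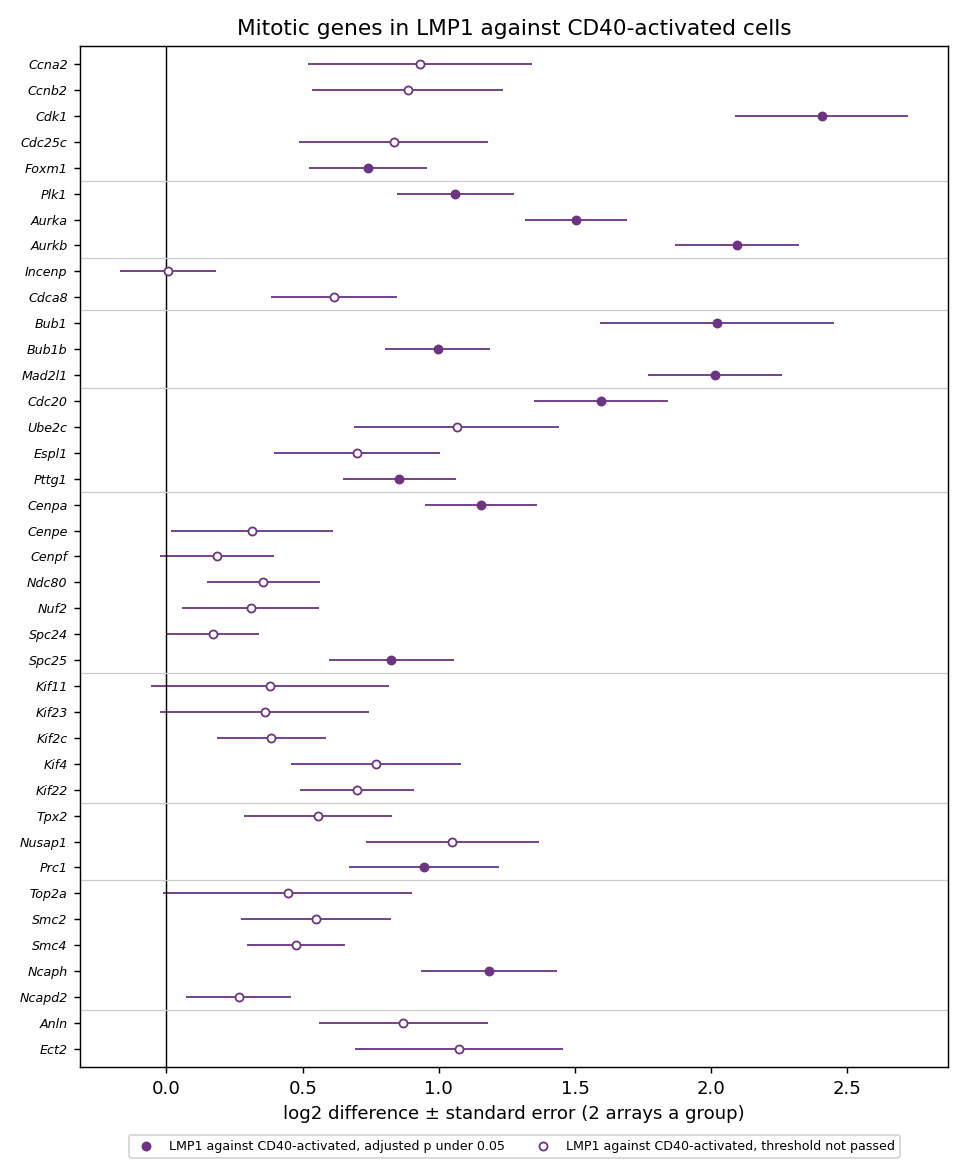
Difference in log2, with its standard error, between LMP1 and CD40-activated cells for 39 mitotic genes, grouped by role; filled points passed an adjusted p of 0.05. The 14 filled points include Cdk1, Aurkb, Bub1 and Mad2l1 near 2 log2, and Incenp lies at 0.0.

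Whether the 2 changes differed in size was tested as the LMP1 change minus the CD40 change, in which strain and array set cancel if they act alike on both groups of a set. Culture does not cancel, since naive controls were the only group without it, nor do the markers of other cells in the naive controls: all 5 T cell genes (median 2.69), 6 of 8 erythroid genes (median 2.59) and 2 of 4 NK cell genes passed upward in this contrast. Their part in the members' values was not tested. Of 39 genes 4 passed, all with the larger rise in LMP1 cells, where 4.20% of all genes passed upward and 4.12% downward. The 4 were Prc1 (1.48 ± 0.39, adjusted p = 0.0455), Spc24 (1.40 ± 0.24, adjusted p = 0.00643), Kif22 (1.35 ± 0.30, adjusted p = 0.0223) and Aurka (1.0 ± 0.26, adjusted p = 0.0468). The median over the members was 0.06 against 0.02 over all genes. Kif11 (-0.90 ± 0.62, adjusted p = 0.449), Kif23 (-0.80) and Ccna2 (-0.68) had the values furthest below 0 and did not pass. In each fit that left out 1 array the Spc24 call was kept, and the other 3 were lost in 4 to 7 of the 8. The members' median was -0.28 without naive control 1 and 0.49 without naive control 2.

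Other mitotic genes outside the list were read by role, 108 of 115 being measured. With LMP1 78 of 108 rose and 2 fell, and with CD40 69 rose and 1 fell, with medians of 1.38 and 1.11. Over all genes 14.9% rose and 8.31% fell with LMP1 (median -0.08), and 11.0% rose and 6.65% fell with CD40 (median -0.05); the counts by role below stand beside these shares. Between LMP1 and CD40-activated cells 39 were higher with LMP1 and 3 lower, where 9.66% of all genes were higher and 5.17% lower. Cyclins and kinases rose for 13 and 12 of 17, checkpoint genes for 7 and 5 of 8, and spindle and chromosome coat genes for 13 and 12 of 15, with LMP1 and CD40 in that order. Kinesins and cytokinesis genes rose for 10 of 11 in both comparisons, with Kif18b (2.38 and 1.95) and Kif15 (2.28 and 3.36) among the leading ones. Kinetochore and centromere genes rose for 19 and 20 of 25, among them the passenger Birc5, survivin (2.96 and 1.78), and Ska3 (2.76 and 2.21). Melk, a kinase of dividing cells, rose by 3.30 and 2.68, and Wee1, which restrains CDK1, by 2.31 and 3.46. Cdc25b, a CDC25 phosphatase like Cdc25c, fell with CD40 (-1.68 ± 0.28, adjusted p = 0.00308) and was at -0.64 with LMP1 without passing.

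Of 16 genes of the anaphase-promoting complex 9 rose with LMP1 and 6 with CD40, with medians of 0.73 and 0.51. The inhibitor Fbxo5 (EMI1) led with LMP1, at 1.86, and rose by 0.82 with CD40. Condensin and cohesin genes rose for 7 of 16 with LMP1 and 4 of 16 with CD40. The condensin subunit Ncapg2 (2.69 and 2.56) and sororin, Cdca5 (2.45 and 1.94), rose. Esco1, a cohesin acetyltransferase (-0.78), and the cohesin subunit Stag2 (-0.57) fell with LMP1, and with CD40 they were at 0.36 and -0.10 without passing. Whether these roles differ from the members was not tested.

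A list of 19 genes held the DREAM and MuvB complexes, their E2F partners and the subunits of NF-Y. Of these, 11 rose and 0 fell with LMP1, and 7 rose and 2 fell with CD40, with medians of 0.71 and 0.60. Mybl2 (B-MYB), the partner with which the MuvB core activates late cell cycle genes, was at 7.39 and 7.10 on naive control 1 and 2, 8.0 and 8.02 on the YFP controls, 9.36 and 9.0 on the CD40-activated arrays and 11.23 and 11.23 on the LMP1 arrays. The groups did not overlap, and Mybl2 rose by 3.22 ± 0.18 (adjusted p = 8.21e-06) with LMP1 and 1.94 ± 0.18 (adjusted p = 0.000142) with CD40, a larger rise with LMP1 (1.28 ± 0.26, adjusted p = 0.0152 for the difference of changes). E2f1 rose by 1.78 and 1.03, and its dimer partner Tfdp1 by 1.96 and 2.68. E2f3 rose by 1.60 and 2.14. Tfdp2, another dimer partner, fell with CD40 (-1.72 ± 0.37, adjusted p = 0.00998). It read 9.23 and 8.13 on naive control 1 and 2, 7.4 and 6.44 on the YFP controls and 6.96 and 6.95 on the CD40-activated arrays. It was thus low on the cultured YFP controls too, which had no CD40 antibody. Of 7 CDK inhibitor genes 1 rose with LMP1, a share near the 14.9% of all genes. It was Cdkn1a (p21), at 6.35 and 6.40 on naive control 1 and 2, 6.85 and 6.68 on the YFP controls, 7.88 and 7.78 on the CD40-activated arrays and 10.79 and 10.79 on the LMP1 arrays. Its LMP1 arrays were far above the other 6. With CD40 Cdkn1a (1.46) and Cdkn2c (0.91) rose, and Cdkn1b, p27 (-1.52), and Cdkn2d (-1.34) fell. Cdkn2d read 8.39 and 7.85 on naive control 1 and 2, 7.09 and 6.16 on the YFP controls and 6.74 and 6.81 on the CD40-activated arrays. Cdkn1b read 9.7 and 9.37, 9.3 and 7.86, and 7.98 and 8.04 on the same arrays. Antibody and culture cannot be told apart in these drops.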

How the data were processed

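RNA of 8 samples was measured on 1 array each. Per the submitters' processing notes the authors made the deposited log2 values with RMA in the oligo package; versions and the genome build are not given in the sources used here, and scanner files were not used here. The table held 25349 probe sets, of which 22225 had 1 gene symbol, 616 several and 2508 none in the platform's table. The last kinds were left out, and 640 genes had more than 1 probe set, of which the one with the highest mean was taken, leaving 21515 genes.

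A model of 4 group means was fitted to all 8 arrays with limma 3.58.1 in R 4.3.3 (lmFit, eBayes; 4 residual and 5.75 prior degrees of freedom), with two-sided p-values adjusted by Benjamini-Hochberg over all genes; the fit was tested on simulated data. The 5 pairs of groups and the difference of the LMP1 and CD40 changes were read as contrasts. All members may be named; from the other lists up to 4 genes with the largest and 2 with the smallest change per role were eligible. Members and lists were chosen with earlier results of these data known. Replicate numbers were not used to pair arrays in the main fit. Deviations of same-numbered arrays correlated between groups with r from -0.102 to 0.074 over genes, which cannot show that the arrays were unpaired. Among the 39 members, array 1 was the higher for 37 in naive controls, 32 in CD40-activated, 21 in LMP1 and 15 in YFP control cells. Alternatives were other eBayes settings, fewer groups or genes, 2 scalings, mean probe sets, the replicate block, and each array left out; exchanging the CD40-activated numbers and leaving Tfrc out of the erythroid sum were added after the data were seen.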

Additional observations from a re-analysis of the deposited data

Results flagged for a closer look

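Of 39 genes 4 passed the test of the difference between the LMP1 and the CD40 change (limma, adjusted p under 0.05). Over all genes 4.20% passed upward and 4.12% downward. The Aurka call was lost with trend and robust eBayes and with each set quantile-normalized alone. With array medians subtracted the Aurka and Prc1 calls were lost. Culture and the markers of other cells in the naive controls do not cancel here, as described above. The LMP1 change minus the CD40 change was 1.48 log2 for Prc1, 1.40 for Spc24, 1.35 for Kif22 and 1.00 for Aurka. Of these genes, Prc1 and Aurka were also higher in LMP1 than in CD40-activated cells, while Spc24 (0.17) and Kif22 (0.70) did not pass there. Between the controls Spc24 was lower in YFP than in naive controls, and Kif22 (-0.65), Prc1 (-0.53) and Aurka (0.50) did not pass.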

How the results depend on the processing

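No called member changed direction under any alternative. Members higher in LMP1 than YFP control numbered 31 to 38 of 39 over all alternatives, and 2647 to 7090 genes in all were called with an array left out, against 4995 with all arrays. For CD40-activated against naive control, leaving out an array gave 22 to 36 members higher, 0 to 1 lower, a median of 1.34 to 1.98 and 1576 to 5631 genes; 1 member was lower with only the groups compared and 1 with quantile normalization within each set. For LMP1 against CD40-activated it gave 5 to 18 members and 1275 to 4735 genes, and only the groups compared gave 31 and 6359. For YFP control against naive control it gave 5 to 23 higher, 1 to 2 lower and medians of 0.34 to 1.00; only the groups compared gave 6 members and 1537 genes, and quantile normalization within each set 2 lower. For CD40-activated against YFP control it gave 7 to 24 higher, 0 to 1 lower and 843 to 5471 genes. There, only the groups compared gave 0 lower and 1667 genes, subtracted medians 0 lower, and quantile normalization within each set 13 higher with a median of 0.66. For the difference of changes it gave 1 to 5 higher, 0 to 1 lower, medians of -0.28 to 0.49 and 707 to 4199 genes, and subtracted medians 2 higher. Its groups are all 4, so no smaller fit exists. The cause of these differences was not tested. With the replicate block 37, 34 and 14 members were higher for LMP1 against YFP control, CD40-activated against naive control and LMP1 against CD40-activated, as without it (in the last, Foxm1 was lost and Kif22 gained; between CD40-activated and YFP control, Anln was lost and Ncaph gained), and 4923, 3659 and 3036 genes were called. In the labels the arrays share only a number. With the numbers of the CD40-activated arrays exchanged, 13 members and 3250 genes were called between LMP1 and CD40-activated. Among single members, 210 results lost a call under an alternative and 97 gained one, of 3510. With array medians subtracted 39 members were still highest in LMP1 cells and 32 lowest in naive controls, and 25 promoters held TTTGAA.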
